A study of Homo sapiens with 60 samples.

Results

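The proteasome subunit genes of HT29, a human colorectal adenocarcinoma cell line, were measured by RNA sequencing after 24 h with herbal water extracts or vehicle. A gene was a member if its symbol was PSM followed by a letter from A to G and a number, if it was protein-coding, and if its mean level over the 60 libraries was at least 1 CPM (counts per M counts). Of 50 protein-coding genes with such a symbol, 47 met the level, out of 60675 genes in the table. PSMB8 (mean 9.68 CPM) and PSMC3IP (13.0 CPM) were the lowest inside the limit. PSMB9 (0.84 CPM), PSMB11 (0.004 CPM) and PSMA8 (listed at 0) lay outside it, and all 47 members passed the later filter on low counts. The members were 7 α and 7 constitutive β genes of the core particle, 2 immune β genes, 6 ATPase and 11 non-ATPase genes of the regulatory particle, 5 activator or inhibitor genes, 7 genes of assembly chaperones and 2 genes, PSMC3IP and PSME3IP1, that share the symbol but encode no subunit.

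The extracts were water extracts of citrus peel (Citri Unshius Pericarpium), of cimicifuga (the rhizome Cimicifugae Rhizoma), of bupleurum (the root Bupleuri Radix) and of processed aconite root (Aconiti Lateralis Radix Preparata), and of the mixtures Yijung-tang, Banhasasim-tang and Bojungikgi-tang. Each was given at 20, 100 and 500 µg/mL (low, medium and high dose) per the sample labels, which name 0.1% DMSO as the vehicle. The series' design text adds that extracts with a low inhibitory concentration were used at lower doses, without naming them, so the labelled doses may not hold for every extract. Each group had 3 libraries, except Bojungikgi-tang with 1 per dose, and the labels do not say whether replicates were separate cultures. The p-values of the fold changes rest on a spread estimated over all 57 tested libraries. It is a spread between libraries and may not be one between cultures. Codes in the sample descriptions put citrus peel with cimicifuga, bupleurum with aconite, and Yijung-tang with Banhasasim-tang in shared library sets, while vehicle and Bojungikgi-tang each had a set of their own. Library set and treatment therefore cannot be told apart in any comparison with vehicle, whereas doses of 1 extract and the paired extracts were compared within a set.

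The proteasome degrades proteins that carry ubiquitin chains. Its barrel-shaped core particle is built of rings of α subunits around rings of β subunits, and PSMB6, PSMB7 and PSMB5 are the β subunits that cut peptide bonds. Interferon-induced counterparts, PSMB9, PSMB10 and PSMB8, can take their places and form the immunoproteasome, which favours peptides for MHC class I. The regulatory particle, with the PSMC ATPases and most PSMD subunits, binds ubiquitinated proteins and feeds them into the core, while PA28 (PSME1, PSME2, PSME3) and PA200 (PSME4) are alternative caps that work without ubiquitin.

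The libraries held 10.35 to 40.05 M counts each (median 23.83 M). The epithelial markers KRT8 (5010 to 7550 CPM) and EPCAM (455 to 707 CPM) were high in every library, CDX2 was low (4.18 to 7 CPM), and the medians of the leukocyte, fibroblast and endothelial genes PTPRC, CD3E, COL1A2, DCN and CDH5 were 0. Other genes of these lists were detected, with medians of 1700 CPM for LYZ, 7.61 for CD68, 1.31 for COL1A1, 0.825 for LUM and 1.8 for PECAM1. Replicate 2 of aconite high and replicate 2 of Banhasasim-tang high stood apart from the other libraries of their groups, and bupleurum medium replicate 2 and vehicle replicate 1 did so to a lesser degree. The small cytoplasmic RNA RN7SL2 fell into 2 classes, with 42 libraries at 40.9 to 238 CPM and 15 libraries, vehicle among them, at 3.44 to 9.9 CPM. Its part in the results below was not tested beyond a fit with the class as a term. RNA came from whole cultures, so fewer cells with a transcript and less of it per cell cannot be told apart.

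Levels of different genes were set side by side as CPM per kilobase of principal transcript in the 3 vehicle libraries. PSMA7, an α subunit, was highest at 367 ± 62.0 CPM per kilobase (SD, n = 3), and PSMB3, a β subunit, followed at 331 ± 66.7, a difference within their spread. PSME3 came next at 266 ± 4.93, but its principal transcript has 998 bases against 5152 bases over all its exons, so this place depends on the annotation. The class medians were 156 for the constitutive β genes, 95.7 for the α genes, 73.4 for the non-ATPases, 63.9 for the ATPases, 58.9 for activators and the inhibitor, and 26.7 for the chaperones. The lowest members were PSMB8 at 8.34 ± 1.05, PSMC3IP at 8.95 ± 0.16 and PSMD9, a chaperone of the regulatory particle, at 9.62 ± 1.39. The immune subunit PSMB9, below the level for members, reached 1.06 ± 0.263.

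**Figure D1:**
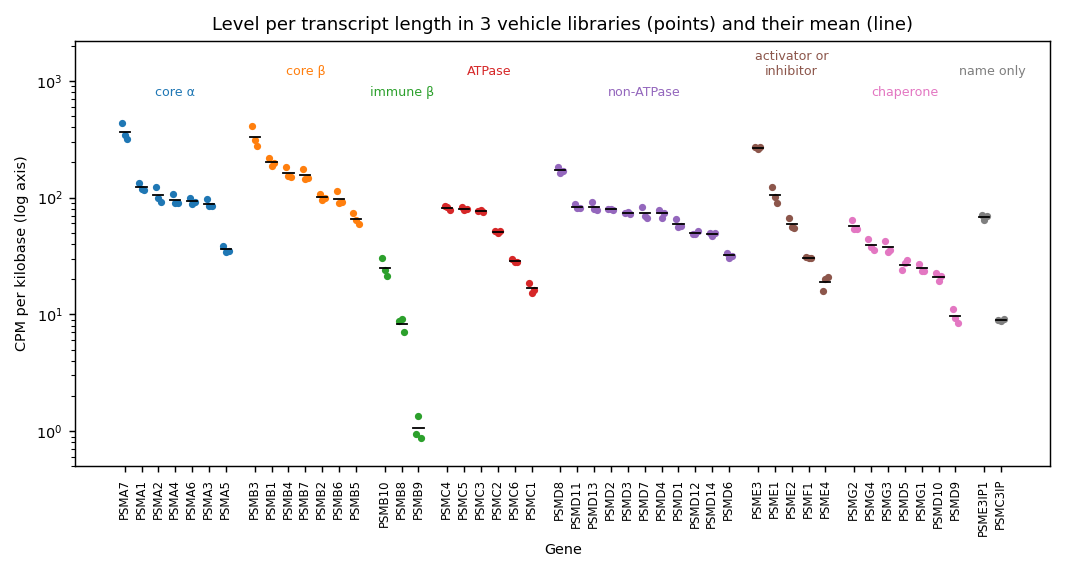
Level of each proteasome gene, and of PSMB9, in vehicle, in CPM per kilobase of principal transcript on a log axis; points are the 3 vehicle libraries, lines their means, and colours the gene classes. The constitutive β genes have the highest class median (156) and the immune β genes PSMB8 (8.34) and PSMB9 (1.06) lie lowest.

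The members differed in how much they varied across libraries. The coefficient of variation over the 60 libraries was under 5% for 6 members and over 10% for 24. The non-ATPase subunits PSMD3 (4.07%) and PSMD1 (4.35%) were the steadiest, and the α subunits PSMA2 (19.2%) and PSMA3 (16.2%) the most variable. In 29 of the 47 members the highest library was aconite high replicate 2, and in 9 it was Banhasasim-tang high replicate 2.

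In the 27 comparisons, 5 of 1269 gene tests passed an adjusted p of 0.05 (edgeR quasi-likelihood test, Benjamini-Hochberg adjustment over 16484 genes). PSME3 rose in aconite high and medium against vehicle and in aconite high against low, PSMD10 was higher in aconite than in bupleurum at the high dose, and PSMG3 fell in Banhasasim-tang low against vehicle. No core, ATPase or non-ATPase gene passed in any comparison. The largest change among all members was 0.43 in size on the log2 scale, and the 95% interval of the change lay within 1.5-fold in either direction for 43 to 47 of the 47 members, depending on the comparison.

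The share of all genes that passed gives the background for these counts. Against vehicle, 1 of 47 members passed in aconite high, where 15.9% of all genes did (8.58% higher), 1 of 47 in aconite medium (4.67%; 2.47% higher) and 1 of 47 in Banhasasim-tang low (2.92%; 1.53% lower). Within a set, 1 of 47 passed in aconite high against low (10.8%; 5.81% higher) and 1 of 47 in aconite against bupleurum at the high dose (9.86%; 5.91% higher). A count of 1 in 47 is a smaller share than the background in each of the 3 aconite high comparisons and near it in the others.

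In the other 22 comparisons 0 of 47 members passed in edgeR, with 0 to 15 members per comparison at an unadjusted p under 0.05. DESeq2 called 3 members over 3 of these comparisons. The share of all genes that DESeq2 called is not given here, so that count is no result about the members. The shares that follow are from edgeR. Against vehicle, the background at low, medium and high dose was 0.00607%, 0% and 0.0243% of genes for citrus peel, 0%, 0.0303% and 1.33% for cimicifuga, 0.801%, 0.406% and 1.52% for bupleurum, and 1.51%, 1.64% and 1.14% for Yijung-tang. It was 1.61% for aconite low, and 3.11% and 1.21% for Banhasasim-tang medium and high. For high against low dose it was 0.0667% for citrus peel, 0.904% for cimicifuga, 0.297% for bupleurum, 0.103% for Yijung-tang and 0.231% for Banhasasim-tang. At the high dose it was 0.886% for cimicifuga against citrus peel and 0.346% for Banhasasim-tang against Yijung-tang.

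**Figure D2:**
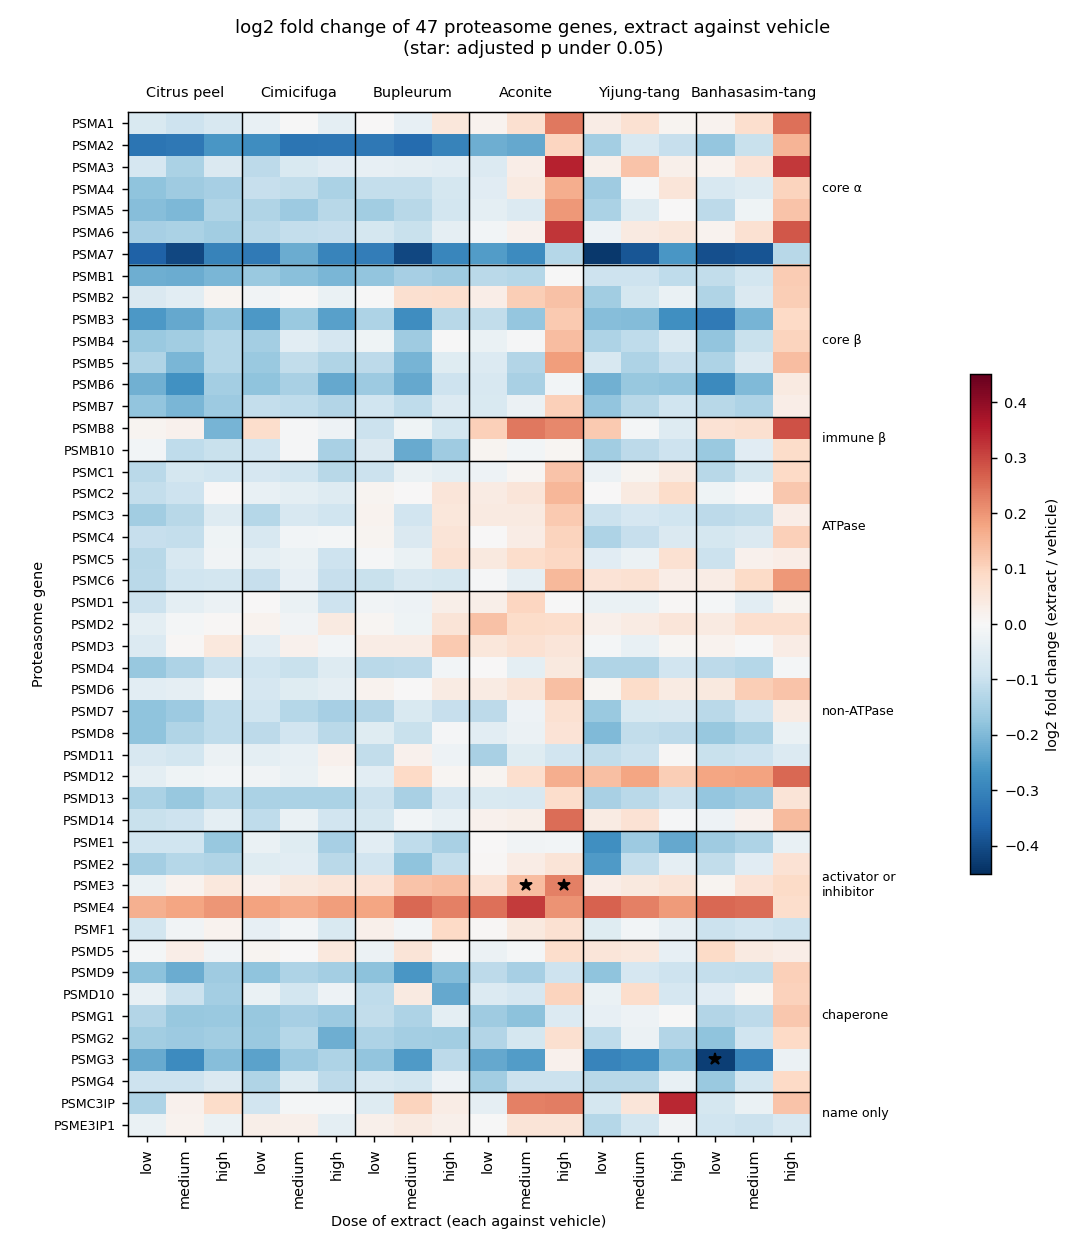
Log2 fold change of the 47 proteasome genes (rows, by class) in 6 extracts at 3 doses against vehicle (columns); red is higher and blue lower than vehicle, and a star marks an adjusted p under 0.05 (edgeR). The 3 stars are PSME3 in aconite medium (0.14) and high (0.23) and PSMG3 in Banhasasim-tang low (-0.42); all comparisons share the 3 vehicle libraries.

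PSME3 (ENSG00000131467; chromosome 17, 42824385 to 42843758, plus strand, GRCh38) encodes PA28γ, the nuclear cap that opens the core to some proteins without ubiquitin. The 250 bases before its RefSeq start (GRCh38.p14, chr17:42833147-42833396, plus strand) are shown because it was the member with the most calls. The capitals mark ATTGG, the CCAAT box read on the opposite strand. This window held no match to the antioxidant or interferon elements described further on.
PSME3: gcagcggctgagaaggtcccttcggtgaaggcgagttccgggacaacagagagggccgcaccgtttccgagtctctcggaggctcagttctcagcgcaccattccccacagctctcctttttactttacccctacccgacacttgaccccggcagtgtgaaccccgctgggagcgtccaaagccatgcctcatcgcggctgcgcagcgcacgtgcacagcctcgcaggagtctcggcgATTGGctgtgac

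PSME3 stood at 268, 260.1 and 269 CPM in vehicle, at 283, 275 and 273 CPM in aconite low, at 289, 297 and 293 CPM in aconite medium, and at 299, 336 and 301 CPM in aconite high. Every aconite library lay above every vehicle library, and the 3 doses did not overlap with each other. Aconite high averaged 312 ± 20.9 CPM and vehicle 266 ± 4.92 CPM (SD, n = 3 each), a log2 fold change of 0.23 (SE 0.04, edgeR Benjamini-Hochberg adjusted p = 0.00013). Without aconite high replicate 2 the change was 0.16 (edgeR adjusted p = 0.00551).

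Aconite medium averaged 293 ± 4.09 CPM, a log2 change from vehicle of 0.14 (SE 0.04, edgeR adjusted p = 0.0485), and this call was lost when any 1 of the 6 libraries was left out. Aconite low, at 277 ± 5.10 CPM, gave 0.06 (adjusted p = 0.524). Within the set, aconite high exceeded aconite low by 0.16 (SE 0.04, adjusted p = 0.00797), and without aconite high replicate 2 by 0.10 (adjusted p = 0.145). When the spread was estimated from the compared groups alone, none of the 3 PSME3 calls passed (edgeR adjusted p = 0.4, 0.158 and 0.597 for high and medium against vehicle and high against low).

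Bupleurum, in the same set, gave 287, 285 and 305 CPM of PSME3 at the high dose and 305, 277 and 290.3 CPM at the medium dose, where replicate 2, the lowest, is the library that stood apart. These libraries also all lay above vehicle, with log2 changes of 0.14 and 0.13 that missed the threshold in edgeR (adjusted p = 0.0906 and 0.13) and passed it in DESeq2. Aconite and bupleurum at the high dose differed by 0.09 in PSME3 (SE 0.04, adjusted p = 0.185), and their dose effects, high minus low, differed by 0.09 (SE 0.06, adjusted p = 0.587). No member of 47 passed in that contrast of dose effects, in which 1.8% of all genes did. Over the 18 comparisons with vehicle, which share its 3 libraries, the PSME3 change was positive in 17 and its groups did not overlap in 11.

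**Figure D3:**
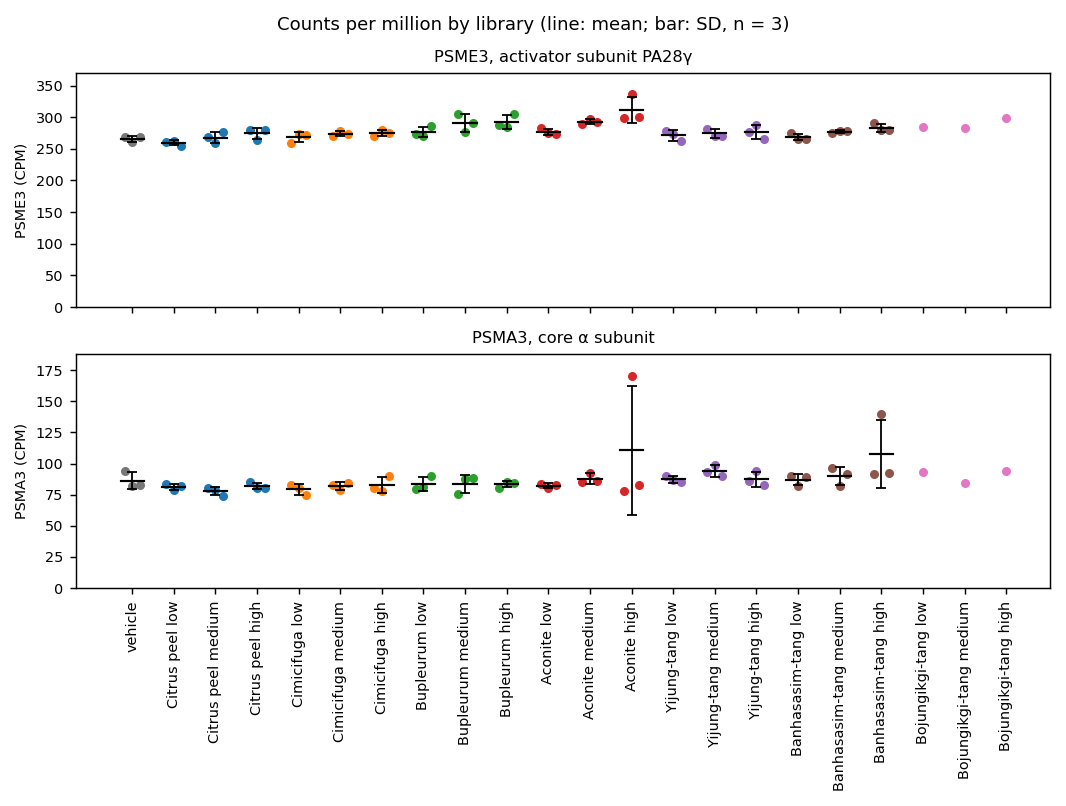
CPM of PSME3 (top) and of the core α subunit PSMA3 (bottom) in every library, vehicle at the left and then each extract from low to high dose; points are libraries, lines the means and bars the SD of 3 libraries. PSME3 reached 299 to 336 CPM in aconite high, against 260.1 to 269 CPM in vehicle, and PSMA3 stood out in single libraries, at 171 CPM in aconite high replicate 2 and 139.6 CPM in Banhasasim-tang high replicate 2.

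PSME4 (ENSG00000068878), which encodes the large cap PA200, passed in no comparison. It had 171, 168 and 163 CPM in aconite medium, against 114, 141 and 147 CPM in vehicle. The groups did not overlap, and the log2 change was 0.31 (SE 0.10, edgeR adjusted p = 0.0504), the smallest adjusted p of this gene. Its change was positive in all 18 comparisons with vehicle (0.08 to 0.31), and all 3 libraries lay above vehicle in 12. Over the 47 members, the change from vehicle correlated positively with principal transcript length in all 18 comparisons. The Spearman coefficient ran from 0.01 in Banhasasim-tang high to 0.5 in Yijung-tang medium. PSME4 has the longest principal transcript, at 7099 bases, against 996 for PSMA7 and 1007 for PSMG3, which were mostly lower than vehicle. The part of length in these changes was not tested. Without vehicle replicate 1, aconite high replicate 2, Banhasasim-tang high replicate 2 and bupleurum medium replicate 2, PSME4 passed in aconite medium and high, in Yijung-tang low and in Banhasasim-tang at all 3 doses, in each case higher than vehicle. PSMF1, the PI31 inhibitor, ranged from -0.10 to 0.09, with a smallest adjusted p of 0.341.

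The interferon-inducible PA28 subunits PSME1 and PSME2 also passed in no comparison. PSME1 had 101, 114 and 98.3 CPM in aconite high, against 124, 101 and 90.5 CPM in vehicle, and the groups overlapped. PSME2 had 75.1, 111 and 73.5 CPM in aconite high, against 93.1, 78.4 and 76.6 CPM in vehicle, again overlapping. Over the 18 comparisons PSME1 ranged from -0.28 to 0.00 and PSME2 from -0.26 to 0.06 (smallest edgeR adjusted p 0.167 and 0.18).

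Of the assembly chaperones, PSMD10 and PSMG3 each passed once. PSMD10 (ENSG00000101843; chromosome X, 108084207 to 108091618, minus strand) encodes gankyrin, an ankyrin-repeat chaperone of the regulatory particle. It had 27.9, 48.5 and 29.6 CPM in aconite high, against 26.7, 26.7 and 29.5 CPM in bupleurum high. The groups overlapped, and 1 library was high. The means were 35.4 ± 11.5 CPM in aconite high and 27.7 ± 1.65 CPM in bupleurum high, a log2 difference of 0.33 (SE 0.11, edgeR adjusted p = 0.0487), and without aconite high replicate 2 it was 0.05 (adjusted p = 0.876).

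PSMG3 (ENSG00000157778; chromosome 7, 1567330 to 1571005, minus strand) encodes a chaperone of the core's α ring. It had 31.1, 23.2 and 29.6 CPM in Banhasasim-tang low, against 42.6, 34.8 and 36.1 CPM in vehicle. All libraries of the extract lay below those of vehicle, with means of 27.97 ± 4.16 CPM in Banhasasim-tang low and 37.9 ± 4.21 CPM in vehicle, and a log2 change of -0.42 (SE 0.12, edgeR adjusted p = 0.0454). The call was lost in 5 of 6 fits that left out 1 library, and the highest of their adjusted p-values, 0.393, came without vehicle replicate 1. The PSMG3 change was negative in 17 of 18 comparisons with vehicle, and its groups did not overlap in 13.

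The 14 constitutive core genes were, in most groups, slightly lower than in vehicle without passing the test. Their median log2 change was -0.18, -0.20 and -0.15 in citrus peel at low, medium and high dose, with 14, 14 and 13 of 14 genes negative. The medians of all genes were near 0 in these comparisons (0.00, 0.01 and 0.00). Of the core genes, PSMA7 (ENSG00000101182) was negative in all 18 comparisons (-0.43 to -0.12). It had 300.1, 260.1 and 249.7 CPM in Yijung-tang low, against 435, 343 and 318 CPM in vehicle, a change of -0.43 (SE 0.14, edgeR adjusted p = 0.083, its smallest).

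Vehicle replicate 1 was the highest vehicle library for PSMA7 and the lowest for PSME4. Its core genes deviated from the vehicle mean by a median of 0.17 on the log2 scale and its 40 ribosomal protein genes, a list kept as a sign of library quality, by 0.23, whereas replicates 2 and 3 stood at -0.07 and -0.08 for the core genes and at -0.08 and -0.15 for the ribosomal genes. Their part in the low core levels of the extract groups was not tested.

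Aconite high and Banhasasim-tang high were the groups in which the core genes were mostly above vehicle, and in both this came with replicate 2. The median change of the core genes was 0.14 in aconite high, with 11 of 14 positive, and 0.11 in Banhasasim-tang high, with 13 of 14 positive. Without replicate 2 of each group the medians were -0.16 in aconite high, with 13 of 14 negative, and -0.09 in Banhasasim-tang high, with 11 of 14 negative. Within the sets, aconite high exceeded bupleurum high by a core median of 0.21, which turned to -0.09 without aconite high replicate 2, and Banhasasim-tang high exceeded its low dose by 0.27, which was 0.05 without replicate 2.

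PSMA3, an α subunit, shows the pattern. It had 78.4, 171 and 82.9 CPM in aconite high and 91.7, 139.6 and 92.3 CPM in Banhasasim-tang high, against 93.9, 81.8 and 82.8 CPM in vehicle. Replicate 2 was high in both extract groups, and the other libraries overlapped with vehicle. The log2 changes were 0.35 (SE 0.14, edgeR adjusted p = 0.0936) and 0.32 (SE 0.14, adjusted p = 0.317).

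PSMA6, another α subunit, had 93.2, 172 and 94.8 CPM in aconite high, against 102, 90.8 and 93.5 CPM in vehicle (log2 change 0.32, edgeR adjusted p = 0.0803). PSMD14, the deubiquitinase of the regulatory particle, had 87.5, 164 and 91.9 CPM in aconite high, against 96.6, 92.1 and 96.9 CPM in vehicle (0.25, adjusted p = 0.109). Replicates 1 and 3 of aconite high lay inside the vehicle range for PSMA6 and below it for PSMD14.

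The same libraries deviated in ribosomal protein genes. In aconite high replicate 2 the median deviation from the group mean was 0.51 for the core genes, 0.33 for the regulatory particle genes and 0.50 for the ribosomal genes. For the same lists, Banhasasim-tang high replicate 2 deviated by 0.39, 0.17 and 0.43. Which part library quality has in the core levels was not tested.

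**Figure D4:**
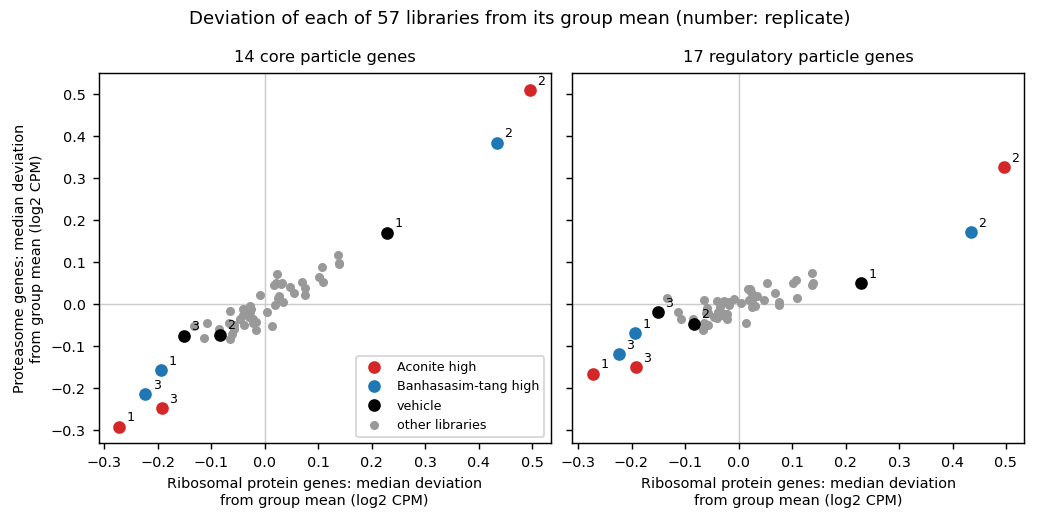
Median deviation of each of 57 libraries from its group mean, in log2 CPM, for 40 ribosomal protein genes (x axis) and for 14 core (left) or 17 regulatory (right) proteasome genes (y axis); numbers are replicates. Replicate 2 of aconite high (core 0.51, ribosomal 0.50) and replicate 2 of Banhasasim-tang high (0.39 and 0.43) lie at the upper right.

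When aconite high replicate 2 was left out, 6 of 47 members passed in aconite high against vehicle (edgeR), where 17.2% of all genes did, with PSME3 and PSME4 higher and PSMG1, PSMA2, PSMA7 and PSMB1 lower. When replicate 1 or replicate 3 was left out instead, 8 of 47 members passed in each case, all of them higher, where 17.9% and 16.0% of all genes passed. These shares of members are near or below the background. PSME3 was the only member called in all 3 of these fits.

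For the regulatory particle, the median of its 17 genes was 0.09 for aconite high and 0.06 for Banhasasim-tang high. PSMD12, a lid subunit, had 259, 287 and 241 CPM in Banhasasim-tang high, against 214, 214 and 226 CPM in vehicle. The groups did not overlap, and the log2 change was 0.26 (SE 0.08, edgeR adjusted p = 0.107). PSMC3IP, which shares the symbol only and acts in meiotic recombination, had 16.1, 13.9 and 18.5 CPM in Yijung-tang high, against 13.5, 11.2 and 11.0 CPM in Yijung-tang low, a difference of 0.42 (adjusted p = 0.163).

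The interferon-stimulated response element, searched on both strands as GAAA, any 2 bases and GAAA, in the 300 bases from 250 before to 50 after each RefSeq start (GRCh38.p14), is shown for the 7 members that held it. The capitals mark the match, with 10 bases on either side, written along the gene's strand; TTTC forms are the element on the opposite strand.
PSMB8, chr6:32844032-32844061, minus strand: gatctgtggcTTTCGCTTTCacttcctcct
PSMB10, chr16:67936852-67936881, minus strand: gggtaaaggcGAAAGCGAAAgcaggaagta
PSME1, chr14:24136189-24136218, plus strand: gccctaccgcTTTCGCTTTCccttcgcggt
PSME2, chr14:24146619-24146648, minus strand: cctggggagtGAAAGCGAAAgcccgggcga
PSMA4, chr15:78540155-78540184, plus strand: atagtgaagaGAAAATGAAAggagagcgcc
PSMB4, chr1:151399495-151399524, plus strand: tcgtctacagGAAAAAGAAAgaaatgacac
PSMG4, chr6:3258904-3258933, plus strand: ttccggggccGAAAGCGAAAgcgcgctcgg

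Of 52 windows of 41 members, 7 (13.5%) held this element, against 3.57% of all 35116 windows. The antioxidant response element, TGANNNNGC, was in 31 of the 52 (59.6%), against 41.8% of all, the GC box GGGCGG in 71.2% against 45%, the CCAAT box in 42.3% against 34.6%, and the AP-1 element TGANTCA in 5.77% against 7.71%. Of 52 matches of the antioxidant element, 1 overlapped an AP-1 match. A match is a description of the letters and was not tested as a site.

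The immune subunits were not called in any comparison. PSMB8 (ENSG00000204264), the counterpart of PSMB5, had 10.8, 11.0 and 11.5 CPM in aconite medium, against 9.94, 10.2 and 8.02 CPM in vehicle. The groups did not overlap, and the log2 change was 0.24 (SE 0.13, edgeR adjusted p = 0.337). In aconite high it had 9.42, 15.3 and 9.13 CPM, with replicate 2 high and the other libraries inside the vehicle range. PSMB10 (ENSG00000205220), the counterpart of PSMB7, had 26.5, 39.8 and 27.1 CPM in aconite high, against 36.8, 29.4 and 25.6 CPM in vehicle, and the groups overlapped. PSMB9, the counterpart of PSMB6, had 1.18, 1.40 and 1.18 CPM in Banhasasim-tang low, against 0.738, 1.06 and 0.679 CPM in vehicle (log2 change 0.55, SE 0.35, adjusted p = 0.382).

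The constitutive catalytic genes followed the rest of the core. PSMB5 (ENSG00000100804) had 73.2, 142 and 77.3 CPM in aconite high, against 95.8, 82.7 and 76.3 CPM in vehicle. PSMB6 (ENSG00000142507) had 66.1, 112 and 71.6 CPM in aconite high, against 96.0, 76.1 and 77.6 CPM in vehicle. PSMB7 (ENSG00000136930) had 148, 209 and 138.5 CPM in aconite high, against 173, 140.4 and 144 CPM in vehicle. In each of them aconite high replicate 2 was the highest of these 6 libraries and the groups overlapped.

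Ratios within a library do not depend on the scaling between libraries. Per transcript length, PSMB8 stood at 12.7% of PSMB5 in vehicle, and at 14.4%, 16.5% and 13.6% in aconite low, medium and high. PSMB10 stood at 16.0% of PSMB7 in vehicle, and at 17.02%, 16.22% and 15.16% in aconite low, medium and high. PSMB9 stood at 1.07% of PSMB6 in vehicle and at 1.36%, 1.43% and 1.29% in aconite low, medium and high.

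The change of each ratio from low to high dose was tested in 6 extracts and 3 pairs, 18 tests in all, with a two-sided exact permutation test over the 1680 arrangements of 9 libraries into 3 doses (smallest possible p 0.00119). None of the 18 passed after Benjamini-Hochberg adjustment. The lowest unadjusted p-values were 0.019 for PSMB8 over PSMB5 in Yijung-tang, with a log2 difference of -0.15, and 0.031 for PSMB10 over PSMB7 in aconite, with -0.17, and both had an adjusted p of 0.279 in the exact test. All 3 high-dose libraries of Yijung-tang lay below its 3 low-dose libraries, at 12.8% to 13.6% against 14.1% to 15.0%.

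**Figure D5:**
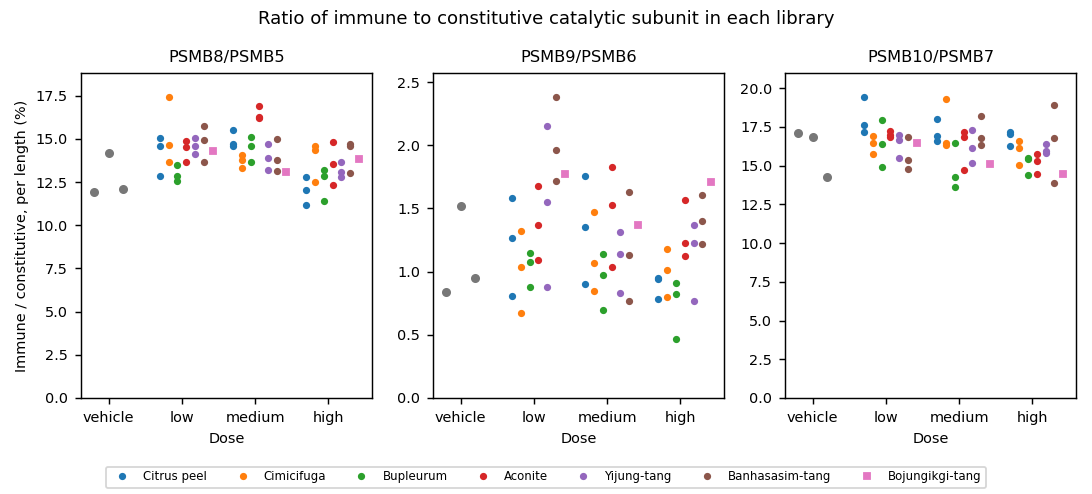
Ratio of each immune to its constitutive catalytic subunit, in percent per transcript length, in vehicle and at low, medium and high dose; points are libraries coloured by extract, and squares are the single Bojungikgi-tang libraries. PSMB8 over PSMB5 spans 11.9% to 14.2% in vehicle, 16.2% to 16.9% in aconite medium and 12.8% to 13.6% in Yijung-tang high.

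The lists of genes that act with the proteasome were read beside the same background. Their median log2 changes in aconite high were 0.18 for 13 partner genes, 0.10 for 11 genes of the NRF1 axis, 0.06 for 14 ubiquitin genes and 0.02 for 12 class I genes, and 0.00 for all genes. Of the 13 partner genes, 5 rose and 0 fell in aconite high against vehicle, where 8.58% of all genes rose. In aconite medium 1 rose, where 2.47% of all genes rose. In aconite low 1 rose, where 1.61% of all genes passed in either direction. ZFAND5, a zinc-finger protein that binds the proteasome and stimulates it, had 206, 226 and 209.6 CPM in aconite high, against 153, 170.2 and 175 CPM in vehicle. No library overlapped, and the log2 change was 0.36 (SE 0.04, edgeR adjusted p = 2.13e-08). Aconite low (0.19, adjusted p = 0.0162) and medium (0.26, adjusted p = 9.62e-05) also exceeded vehicle, but the call in aconite low was lost in 4 of 6 fits that left out 1 library (adjusted p up to 0.342). ZFAND5 passed, higher, in 10 of the 18 comparisons with vehicle, and 8 of these calls were lost without vehicle replicate 1.

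The other partners that rose in aconite high were UCHL5, a deubiquitinase of the regulatory particle, TXNL1, a thioredoxin-like proteasome protein, PAAF1, a regulatory-particle chaperone, and ZFAND2A, a stress-induced zinc-finger protein. UCHL5 had 94.3, 110 and 94.0 CPM in aconite high, against 80.9, 81.7 and 81.0 CPM in vehicle (0.29, SE 0.06, edgeR adjusted p = 0.00031), with no overlap. TXNL1, PAAF1 and ZFAND2A lost the call without aconite high replicate 2. POMP, the chaperone of core assembly, had 316, 597 and 328 CPM in aconite high, against 390.0, 363 and 343 CPM in vehicle, and its smallest adjusted p against vehicle was 0.414.

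NFE2L1 (NRF1) is the transcription factor that raises proteasome gene transcription when the proteasome is inhibited. It had 288, 196 and 289 CPM in aconite high, against 231, 248 and 243 CPM in vehicle, and over the 18 comparisons it ranged from -0.09 to 0.19 with a smallest edgeR adjusted p of 0.265. Of 11 tested genes of this axis, 2 rose and 0 fell in aconite high, NFE2L2 and MAFF, where 8.58% of all genes rose. Both also rose in aconite medium, where 2.47% of all genes rose. In aconite medium the MAFF call was lost without vehicle replicate 3 or aconite medium replicate 2, and the NFE2L2 call without vehicle replicate 2. NFE2L2 (NRF2), the related antioxidant factor, averaged 148 ± 12.7 CPM in aconite high and 126 ± 4.88 CPM in vehicle (0.23, SE 0.05, adjusted p = 0.0011). MAFF, a small MAF partner of both factors, averaged 16.6 ± 0.624 CPM in aconite high and 13.3 ± 0.948 CPM in vehicle (0.32, SE 0.07, adjusted p = 0.000599).

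Of 14 genes of ubiquitin supply and shuttling, 3 rose and 1 fell in aconite high, where 15.9% of all genes passed. SQSTM1 (p62), a ubiquitin-binding autophagy receptor, had 491, 496 and 489.7 CPM in aconite high, against 416, 369 and 365 CPM in vehicle (0.36, SE 0.06, edgeR adjusted p = 4.75e-06), with no overlap. RAD23B, a shuttle factor, rose by 0.19 (adjusted p = 0.000939), UBA6, a ubiquitin-activating enzyme, by 0.19 (adjusted p = 0.0314), and UBQLN2, a ubiquilin shuttle, fell by 0.18 (adjusted p = 0.0163). The UBQLN2 call was lost without aconite high replicate 2 (adjusted p = 0.128), and the UBA6 call was lost in 3 of 6 fits that left out 1 library, that one among them.

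SQSTM1 also rose in cimicifuga high, which had 507, 492 and 514 CPM, against 416, 369 and 365 CPM in vehicle (0.40, edgeR adjusted p = 4.14e-06). Within its set it exceeded citrus peel high, which had 330.2, 329.7 and 353 CPM, by 0.58 (SE 0.06, adjusted p = 1.41e-09), and cimicifuga low by 0.42 (adjusted p = 1.97e-06). No proteasome member passed in these comparisons.

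Of 12 genes of MHC class I presentation, 1 rose and 1 fell in aconite high, a share near the 15.9% of all genes that passed. The gene that fell was TAPBP, which encodes the peptide-loading protein tapasin (-0.25, edgeR adjusted p = 0.0262), and its call was lost in 4 of 6 fits that left out 1 library, among them those without aconite high replicate 2 and without vehicle replicate 1. TAP2, a peptide transporter subunit, had 72.1, 68.1 and 74.1 CPM in aconite high, against 54.6, 54.1 and 55.2 CPM in vehicle (0.39, SE 0.06, edgeR adjusted p = 1.17e-05). TAP2 also rose in aconite low and medium and in Banhasasim-tang low and medium, and without vehicle replicate 1 these calls were lost except in aconite medium. Every aconite high call against vehicle in these lists of genes, RAD23B included, was lost when the spread came from the compared groups alone. The edgeR adjusted p-values then lay between 0.103 (TAP2) and 0.512 (TXNL1 and UBQLN2).

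Bojungikgi-tang had 1 library per dose and no test. Its median log2 ratio to the vehicle mean over the members was -0.03, -0.09 and -0.04 at low, medium and high dose, while all 10709 genes of at least 5 CPM had medians near 0 (0.00, 0.01 and 0.00). At the 3 doses 3, 8 and 9 of 47 members lay above all vehicle libraries, where 26.8%, 37.1% and 35.2% of all those genes did, and 9, 22 and 13 members lay below, where 24.1%, 33.6% and 32.8% of them did. Its ribosomal genes had medians of -0.08, -0.21 and -0.14. PSME3 stood at 285, 284 and 299 CPM, PSME4 at 143, 167 and 174 CPM, and PSMA7 at 290.2, 277 and 289 CPM from low to high dose.

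Reads shared with other genes limit some of these values. PSMC1 shares 75.8% of its exon bases with NRDE2 on the opposite strand, PSMB10 34.8% with AC040162.1 and PSMA2 14.6% with AC010132.3 on the same strand, and PSME3 5.82% with BECN1 on the opposite strand. The pseudogene PSMC1P1 was counted at 5.58 CPM.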

How the data were processed

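Messenger RNA of 60 HT29 libraries was measured. The submitters' processing notes name STAR 2.7.3a, RSEM 1.3.3, FastQC 0.11.9 and Trim Galore 0.6.5, and GRCh38 (hg38) as the build. The deposited values are RSEM estimated counts, and nothing in the table shows that the authors normalized them. Of its 270 columns, 60 matched the labels and 210 were not used. Before rounding for the tests, 8.68% of values were not whole, and 0 lines named no gene. The kit marks strand per the labels' protocols, and the strand setting of the counting is not given in the sources used here. The sample labels give 0.1% DMSO and the series' design text 2%.

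Symbols came from a gene name table (56558 identifiers matched) and coordinates and lengths from GENCODE release 29 (57055 matched), promoter sequences from RefSeq. The members and lists were chosen with earlier results of these data known. Counts were tested in edgeR 4.0.16 (R 4.3.3) by the quasi-likelihood test, with TMM scaling and filterByExpr by group (16484 genes), in 1 fit of group means over 57 libraries in 19 groups (common biological coefficient of variation 8%). P-values were adjusted by Benjamini-Hochberg within each of 27 comparisons. Standard errors are the absolute log2 fold change over the square root of F. CPM use TMM totals. The test was checked on simulated counts.

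Alternatives were RLE scaling, no filter, DESeq2 1.42.0, a fit of the compared groups only, replicate blocks and each library left out. Chosen after seeing the data were a term for the RN7SL2 class (at 20 CPM), the exclusion of 4 libraries (aconite high 2, Banhasasim-tang high 2, vehicle 1 and bupleurum medium 2), and the contrasts of dose effects. Named were all catalytic, immune and PA28 subunits, members past the threshold, the highest and lowest levels per length, NFE2L1, NFE2L2, POMP and up to 3 genes of each related list with the smallest adjusted p. Further genes (PSME4, PSMF1, PSMA3, PSMA6, PSMA7, PSMD12, PSMD14, PSMC3IP and the most and least variable) were named after their values were seen, as were the other related genes.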

Additional observations from a re-analysis of the deposited data

Results flagged for a closer look

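SQSTM1, the ubiquitin-binding receptor p62, changed with dose by 0.59 more in cimicifuga than in citrus peel, as the difference of their high minus low effects on the log2 scale (SE 0.08, edgeR adjusted p = 1.83e-05). It was picked out because the dose effects of these extracts, which share a library set, differed in a direct test that was added after the data were seen. Cimicifuga high averaged 505 ± 11.1 CPM and cimicifuga low 376 ± 8.26 CPM (SD, n = 3 each), while citrus peel high averaged 338 ± 13.1 CPM. In that contrast 0.115% of all genes passed and 0 of 47 proteasome members did, with 1 member at an unadjusted p under 0.05 in edgeR. No proteasome gene passed in the contrasts of aconite with bupleurum (1.8% of genes, 1 member at an unadjusted p under 0.05) or of Banhasasim-tang with Yijung-tang (0% of genes, 1 such member).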

How the results depend on the processing

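Counts of members called moved as follows, against 1 in aconite high, aconite medium and Banhasasim-tang low against vehicle, in aconite high against low and in aconite against bupleurum, and 0 elsewhere. With no filter on low counts, against vehicle, citrus peel gave 2, 2 and 1 from low to high dose, cimicifuga 2, 1 and 2, bupleurum 2, 4 and 2, aconite medium 2 and high 5, Yijung-tang 5, 1 and 2, and Banhasasim-tang 4, 2 and 2. High against low gave 6 in aconite, 1 in Yijung-tang and 13 in Banhasasim-tang, the pairs gave 8 in aconite against bupleurum and 2 in Banhasasim-tang against Yijung-tang, and the dose effect contrasts of those pairs gave 1 each. DESeq2 gave 1 in bupleurum medium and high, 1 in Yijung-tang low, 2 in aconite medium, 2 in aconite high against low and 3 in aconite against bupleurum. Without the 4 deviating libraries there were 1 in bupleurum high, 3 in aconite medium, 5 in aconite high, 1 in Yijung-tang low, 2, 1 and 1 in Banhasasim-tang from low to high, and 1 in Yijung-tang high against low. With the compared groups only, all 5 comparisons with a call gave 0. With the RN7SL2 class as a term, aconite medium and aconite against bupleurum gave 0. The causes were not tested. The shares of all genes that passed in these alternative fits are not given here. Without those shares, these counts are not set against a background here and are read as no result about the members. Of 222 such alternative counts, 174 were equal to the reported count or within 1.5 times of it, with 0 against a reported 0 taken as equal. The reported count was 0 in most comparisons, so this is no measure of stability where a member was called.

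Leaving out 1 library at a time gave 1 to 8 members in aconite high and 0 to 1 in aconite medium, Yijung-tang low and Banhasasim-tang high against vehicle, and 0 to 2 in Banhasasim-tang low. Beside the highest of these counts, 17.9% and 16.0% of all genes passed in aconite high, 4.57% in aconite medium and 3.38% in Yijung-tang low. The shares were 2.18% in Banhasasim-tang high and 5.29% in Banhasasim-tang low. Within the library sets, leaving out 1 library gave 0 to 12 members in aconite high against low. The same dose comparison gave 0 to 1 in Yijung-tang and 0 to 14 in Banhasasim-tang. The pairs at the high dose gave 0 to 15 in aconite against bupleurum and 0 to 1 in Banhasasim-tang against Yijung-tang. The shares of all genes that passed beside these within-set counts are not given here. Without those shares, the within-set counts are read as no result about the members. The counts of 8, 12, 14 and 15 came when replicate 1 or 3 of aconite high or replicate 3 of Banhasasim-tang high was left out. The highest counts in aconite medium, Yijung-tang low and Banhasasim-tang low against vehicle came without vehicle replicate 3. Those in Banhasasim-tang high against vehicle and in Yijung-tang high against low came without replicate 2 of the high dose. None of 180 alternatives for the ratios passed.

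Replicate numbers did not pair the samples: in no comparison did all 3 same-numbered pairs correlate above 0.1, and the lowest correlation of their deviations was -0.38. With the replicate number as a block, aconite medium gave 0 calls, and with the block within library set, aconite high against low and aconite against bupleurum gave 0. With 3 libraries a group, a member that missed the threshold is bounded only by its interval.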
